A study of Mus musculus with 25 samples.

Results

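The genes described here are 35 genes of fatty acid oxidation and ketone body metabolism, measured in the distal colon of 25 mice. The members are the genes named in a list of symbols, and each was found by its Ensembl identifier among the 49452 gene identifiers of the deposited table. All 35 symbols were found, and all 35 passed the filter on low values, at least 0.2 FPKM in at least 5 libraries, which 19266 genes passed. They comprise 6 enzymes of fatty acid activation and carnitine transfer, 17 enzymes of the mitochondrial spiral and its electron carriers, 5 peroxisomal enzymes, 3 ketone body enzymes and 4 regulators. Acaa1b reached 0.2 FPKM in 8 libraries, 4 of them labelled Il12b-/-, and would not have passed without that group.

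All mice were on the C57BL/6 background, were 6 weeks old and ate regular chow, and each genotype was represented by 5 mice. Nemofl/fl mice carry floxed alleles of Ikbkg, the gene for NEMO, which regulates the kinase upstream of NF-κB, and serve as controls. NEMOIEC-KO mice lack NEMO in intestinal epithelial cells, and the labels neither describe the allele further nor name the Cre driver. The other 3 genotypes are NEMOIEC-KO mice that carry in addition Il12b-/- (the p40 chain, found in both IL-12 and IL-23), Il12a-/- (the p35 chain of IL-12) or Il23a-/- (the p19 chain of IL-23), so the epithelial deletion is common to them and to their NEMOIEC-KO reference. The series asks how the loss of each cytokine subunit affects the colitis of NEMOIEC-KO mice. The replicates are separate mice, and the RNA is from whole tissue, which holds epithelium, muscle and immune cells. In such bulk samples, fewer cells of a type and less RNA per cell cannot be told apart.

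Fatty acids are activated to acyl-CoA, carried into mitochondria by the carnitine shuttle, and shortened there in a repeating spiral of dehydrogenation, hydration, a second dehydrogenation and thiolysis, with electrons passed on through the electron transfer flavoproteins. Very long and branched chains are shortened first in peroxisomes. Acetyl-CoA from the spiral can be turned into ketone bodies, which other cells convert back to acetyl-CoA. Colonocytes are known for living largely on butyrate, a short-chain fatty acid made by gut bacteria, which they burn through the same mitochondrial spiral and from which they also make ketone bodies. PPARα, PPARγ and PGC-1α are transcriptional regulators of these genes in several tissues, and PDK4 restrains pyruvate oxidation.

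In Nemofl/fl libraries Ikbkg averaged 9.08 ± 1.14 FPKM (SD, n = 5, as for all means here), and the means of the other genotypes ran from 3.34 to 4.08 FPKM. Il12b averaged 0.994 ± 0.223 FPKM in the libraries labelled Il12b-/-, above 0.171 ± 0.0799 in NEMOIEC-KO, and Il12a averaged 1.20 ± 0.586 FPKM in those labelled Il12a-/-, above 0.421 ± 0.313. Il23a lay at 0.214 ± 0.0427 FPKM in the libraries labelled Il23a-/- and at 0.311 ± 0.308 in NEMOIEC-KO. Whole-gene FPKM cannot show a partial deletion, and the double mutants are therefore named below by their labels. The label descriptions carry library codes: 1 code is on all Nemofl/fl libraries and on NEMOIEC-KO replicates 3 to 5, another on NEMOIEC-KO replicates 1 and 2 and on all double mutants but Il23a-/- replicate 5. By sex-linked RNA, 0 of 5 Nemofl/fl, 1 NEMOIEC-KO, 2 Il12b-/-, 2 Il12a-/- and 4 Il23a-/- mice were female. Summed FPKM per library ran from 653776 to 744280, and relative depth, read from the smallest steps in the values, from 0.735 to 1.12 times the median library. Absolute depth is unknown, and no counting interval can be given.

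In Nemofl/fl colon, per transcript length and library (FPKM), the most abundant member was Hadh, the short-chain 3-hydroxyacyl-CoA dehydrogenase, at 169 ± 13.8, followed by Etfb, a subunit of the electron transfer flavoprotein, at 146 ± 7.11. Acsl3, Acads and Oxct1 came next, with means of 99.5, 97.0 and 93.8 FPKM and SDs of 12.8, 9.46 and 3.53, so that neighbours in this part of the order did not differ beyond their spread. The least abundant were Acaa1b at 0.129 ± 0.0629, Ppara at 0.731 ± 0.476 and Pdk4 at 4.97 ± 1.46 FPKM. Over the 35 members the summed FPKM was 1912 ± 122 for Nemofl/fl and 1577 ± 92.0 for NEMOIEC-KO, and the double mutants gave 1894 ± 88.8 with the Il12b-/- label, 1789 ± 64.9 with Il12a-/- and 1719.8 ± 115 with Il23a-/-. Each Nemofl/fl sum was above each NEMOIEC-KO sum.

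**Figure D1:**
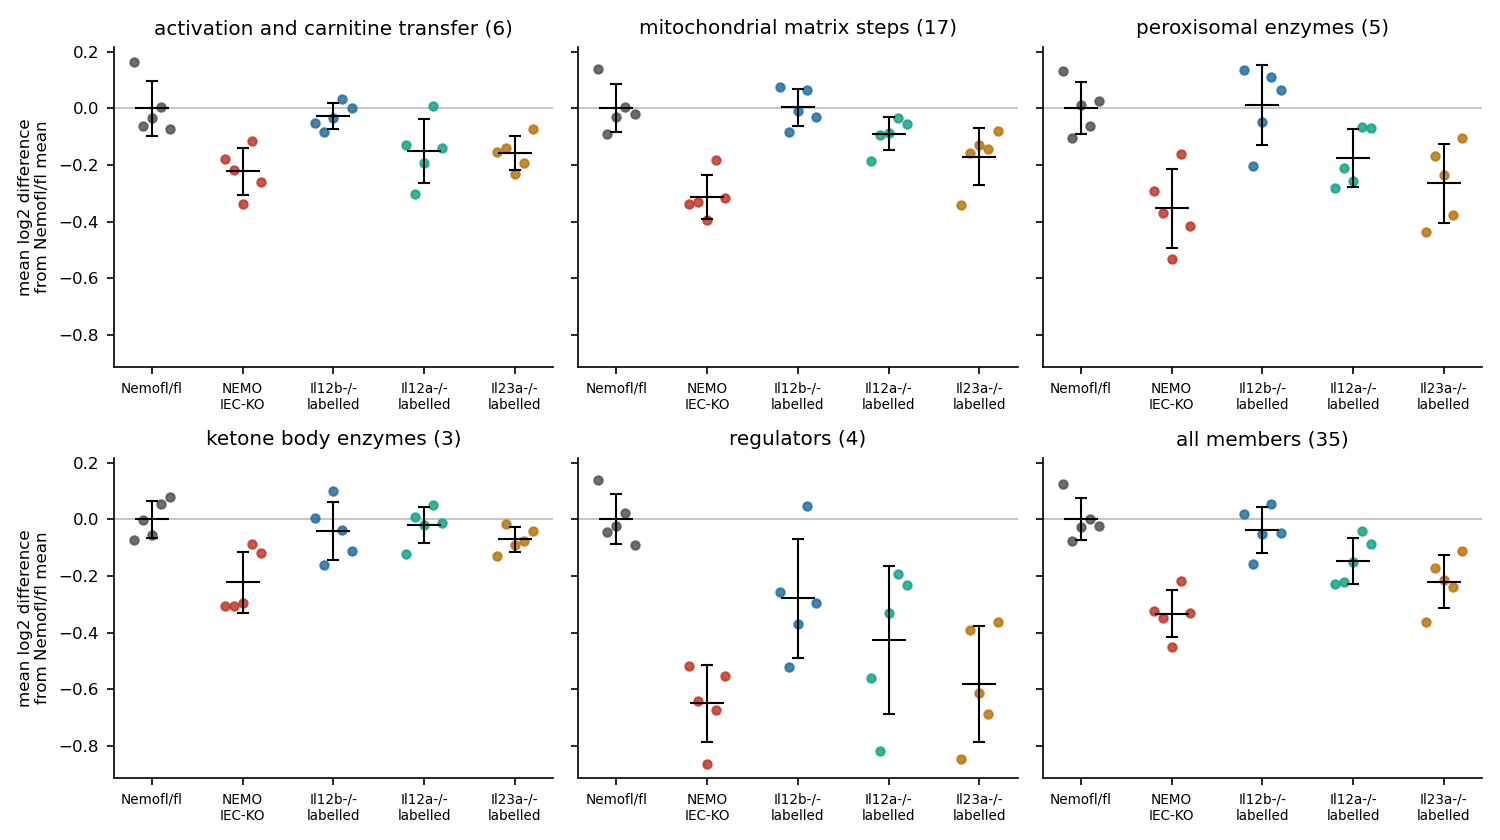
Mean log2 difference of each group of members from the Nemofl/fl mean (y axis, log2 of FPKM + 0.5) in each library, by genotype (x axis); points are libraries, and bars are the mean and SD over 5 mice. NEMOIEC-KO libraries average -0.31 over the 17 mitochondrial members, -0.35 over the 5 peroxisomal, -0.22 over the 3 ketone body and -0.65 over the 4 regulator genes, and all 5 lie below all Nemofl/fl libraries in each of these groups. The peroxisomal and all-member panels include Acaa1b, which passed the filter only through the Il12b-/- libraries. For the other 4 peroxisomal members the median log2 fold change of NEMOIEC-KO from Nemofl/fl was -0.44.

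Most members were lower in NEMOIEC-KO than in Nemofl/fl colon. Of 35 members, 19 fell and 3 rose (limma on log2(FPKM + 0.5), adjusted p below 0.05), where 32.2% of all 19266 tested genes were called, 20.3% as lower and 11.9% as higher. The largest falls were those of Pdk4, the pyruvate dehydrogenase kinase, at -1.73 (SE 0.29, adjusted p = 0.00019), of Acsl3, a long-chain acyl-CoA synthetase, at -1.06 (SE 0.23, adjusted p = 0.0018), and of Acaa2, the mitochondrial thiolase, at -1.02 (SE 0.13, adjusted p = 1.2e-05) on the log2 scale. The 3 that rose were Acadl, the long-chain acyl-CoA dehydrogenase, Acsl5, another acyl-CoA synthetase, and Pparg. The groups did not overlap for 16 members, against 22.2% of all genes. The median log2 fold change of the members was -0.31, and that of all genes -0.08. Of the mitochondrial members 10 of 17 fell and 1 rose, of the peroxisomal 3 of 5 fell, and of the ketone body enzymes 1 of 3 fell. Within the single library code that both genotypes share (5 against 3 mice), 16 members fell and 1 rose. For this fit the share of all genes called is not given here, so the count is not set against genes at large.

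In the libraries labelled Il12b-/- many members were higher than in NEMOIEC-KO. This comparison and those of the other double mutants share the NEMOIEC-KO libraries with the first one. Of 35 members, 17 rose and 1 fell, where 19.9% of all genes were called, 14.0% as higher and 5.94% as lower. The 17 include Acaa1b, which was tested only because of this group; without it 16 of 34 members rose and 1 fell. Acaa2 rose by 0.98 (SE 0.13, adjusted p = 3e-05), Acads, the short-chain acyl-CoA dehydrogenase, by 0.59 (SE 0.11, adjusted p = 0.00085) and Bdh1, the mitochondrial 3-hydroxybutyrate dehydrogenase, by 0.52 (SE 0.07, adjusted p = 5.3e-05) on the log2 scale, and the member that fell was Acadl. The groups did not overlap for 14 members, against 15.8% of all genes. The median was 0.31 for the members and 0.11 for all genes. With library totals rescaled by the median of ratios the all-gene median was 0.00, the members' median 0.18, and 8 members rose and 1 fell. Of the mitochondrial members 11 of 17 rose and 1 fell, and of the ketone body enzymes 1 of 3 rose. Of the peroxisomal members other than Acaa1b, 2 of 4 rose. With the library code in the model 8 members rose and none fell, and 6 rose within 1 code, where 2 NEMOIEC-KO mice remain. The shares of all genes called in these alternative fits are not given here. A lower count in them therefore cannot be read as particular to the members.

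The libraries labelled Il12a-/- showed fewer calls, with 9 members higher and 2 lower than in NEMOIEC-KO, where 9.61% of all genes were called, 5.61% as higher and 4.00% as lower. Acaa2 rose by 0.76 (SE 0.13, adjusted p = 0.0016), Acads by 0.46 (SE 0.11, adjusted p = 0.013) and Bdh1 by 0.41 (SE 0.07, adjusted p = 0.0022), and Acadl and Pparg fell. The groups did not overlap for 6 members, against 5.15% of all genes, and the median was 0.21 against 0.07 for all genes. By place, 7 mitochondrial members of 17 rose and 1 fell, and 1 peroxisomal member of 5 and 1 ketone body enzyme of 3 rose. With median-of-ratios scaling 5 rose and 2 fell, with the library code in the model 4 rose and 1 fell, and within 1 code, with 2 NEMOIEC-KO mice, limma called 0 members. The shares of all genes called in these fits are not given here either.

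Against NEMOIEC-KO, the libraries labelled Il23a-/- had 2 members higher and none lower, where 0.0830% of all genes were called, 0.0467% as higher and 0.0363% as lower. Hsd17b10, a mitochondrial dehydrogenase of short and branched chains, rose by 0.35 (SE 0.07, adjusted p = 0.038) and Eci1, an isomerase for unsaturated chains, by 0.41 (SE 0.08, adjusted p = 0.039). For both, the lowest Il23a-/- library was above the highest NEMOIEC-KO library, as for 4 members in all and 2.02% of all genes. At an unadjusted p under 0.05, 13 members (37.1%) passed, against 10.5% of all genes. The medians were 0.12 for the members and 0.03 for all genes, and the 95% interval of the difference lay within 0.5 of zero on the log2 scale for 27 members. Both calls were lost with the library code or sex in the model, and each was also lost without 1 library in 7 of 10 cases for Hsd17b10 (adjusted p 0.073 to 0.12) and 8 of 10 for Eci1 (0.053 to 0.12).

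**Figure D2:**
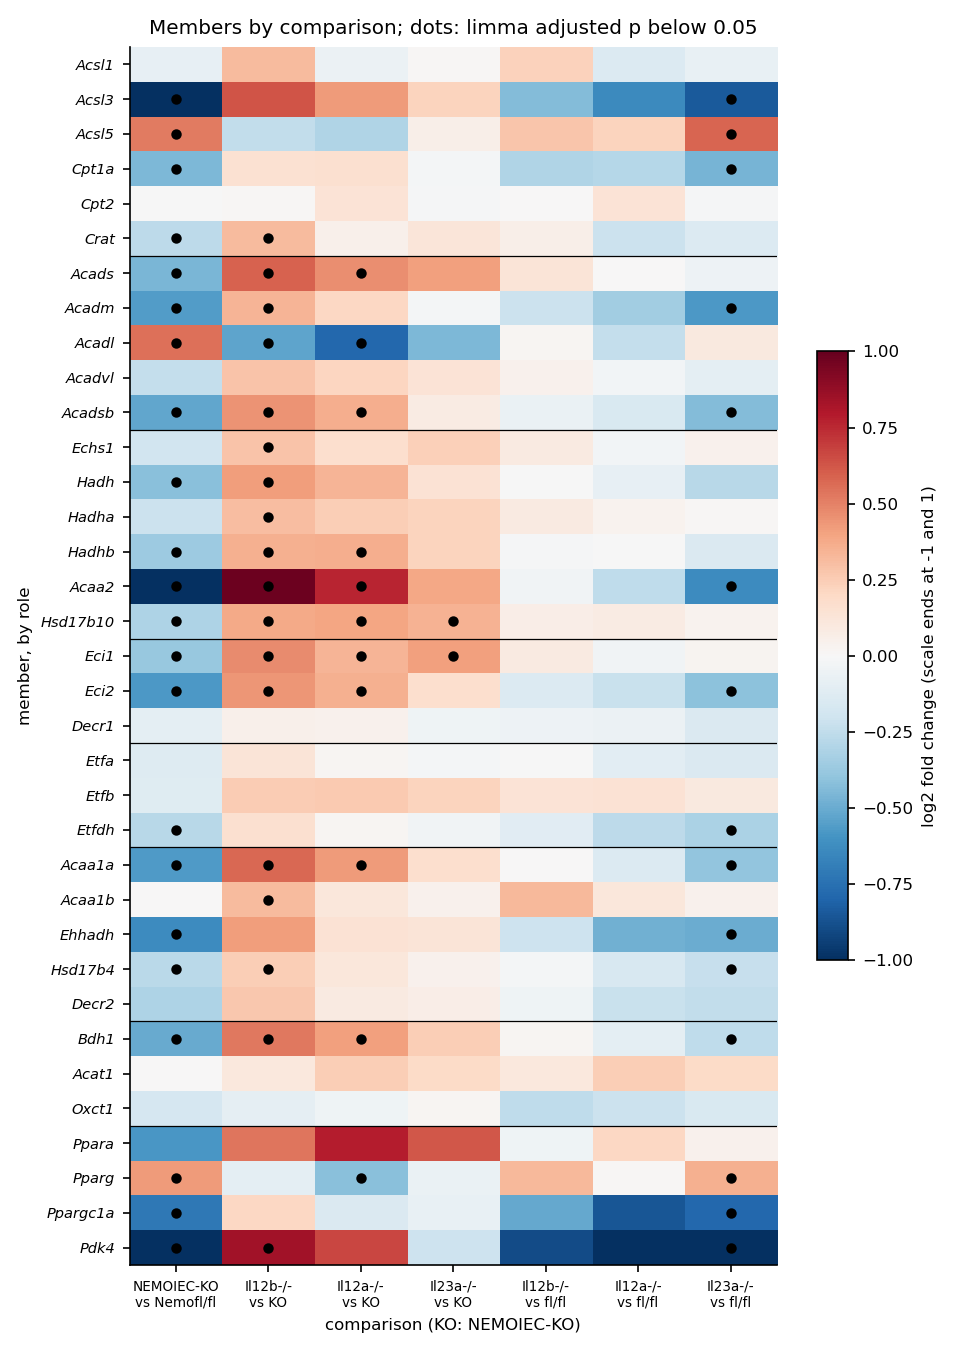
Log2 fold change (color, blue lower and red higher in the first-named genotype, color scale ending at -1 and 1) of the 35 members (rows, lines between roles) in 7 comparisons (columns); dots mark an adjusted p below 0.05 in limma. The first column holds 19 lower and 3 higher calls, the second 17 higher (Acaa1b, tested only because of this group, among them) and 1 lower, and the fifth and sixth columns hold none.

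The double mutants were also set against Nemofl/fl, and these comparisons share the Nemofl/fl libraries with the first one. For the Il12b-/- label limma called 0 of 35 members (0.369% of all genes, 0.249% higher and 0.119% lower), 5 (14.3%) had an unadjusted p under 0.05 against 14.1% of all genes, the median difference was -0.00, and the groups did not overlap for 1 member (4.48% of all genes). With the Il12a-/- label it called 0 as well (1.34% of all genes, 0.773% higher and 0.571% lower), 10 (28.6%) had an unadjusted p under 0.05 against 19.8% of all genes, the median was -0.10, and the groups did not overlap for 5 members (8.70% of all genes). The intervals of 25 members lay within 0.5 of zero in each of the 2 comparisons, so a difference of that size is not excluded for the others. Pdk4 had the widest gap in both, at -0.89 (SE 0.29, adjusted p = 0.17) and -1.06 (SE 0.29, adjusted p = 0.061), and Ppargc1a differed by -0.86 (SE 0.23, adjusted p = 0.059) in the second. With the Il23a-/- label 13 members were lower and 2 higher than in Nemofl/fl (29.5% of all genes, 17.0% lower and 12.6% higher), with no overlap for 12 members and 15.9% of all genes. With sex in that model 4 members were lower and none higher, and with the library code 4 were lower and 2 higher, shares of all genes not given. No double mutant shares a library code with Nemofl/fl, so in these comparisons code and genotype cannot be told apart directly. The fit with the library code links them only through the NEMOIEC-KO mice.

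The double mutants were also compared with each other. Il12b-/- libraries had 6 members higher and none lower than Il23a-/- libraries (5.11% of all genes, 3.18% higher and 1.93% lower), with no overlap for 5 members (5.36% of all genes). They were Acadsb, Acaa2, Eci2, Acaa1a, Bdh1 and Pdk4. Of these, Acaa2 rose by 0.59 (SE 0.13, adjusted p = 0.011), Bdh1 by 0.27 (SE 0.07, adjusted p = 0.033) and Pdk4 by 1.05 (SE 0.29, adjusted p = 0.037). The count ran from 1 to 8 when each of the 10 libraries was left out in turn, and it was 1 without Il12b-/- replicate 1 or 3 and without Il23a-/- replicate 1 or 4. Between Il12b-/- and Il12a-/- limma called 0 members (0.410% of all genes, 0.234% higher and 0.176% lower), with 3 (8.57%) at an unadjusted p under 0.05 against 6.49% of all genes, and no overlap for 0 members (1.57% of all genes). Between Il12a-/- and Il23a-/- it also called 0 (1.16% of all genes, 0.400% higher and 0.763% lower; no overlap for 0 members and 1.91% of all genes), with 9 members (25.7%) at an unadjusted p under 0.05 against 20.0% of all genes. Without Il12a-/- replicate 1 it called 5, of which 4 were higher.

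Acyl-CoA synthetases couple fatty acids to coenzyme A, and Acsl3 (ENSMUSG00000032883, chr1:78657825-78707743, + strand, on GRCm38 as all positions here), an enzyme of the endoplasmic reticulum and lipid droplets, was the member of this role that fell most. It measured 103, 87.6, 95.2, 120.1 and 92.0 FPKM in the 5 Nemofl/fl libraries and 67.7, 45.3, 24.5, 47.0 and 64.8 in NEMOIEC-KO. All NEMOIEC-KO libraries were below all controls, with replicate 3 lowest. In the double mutants it measured 60.1, 53.1, 83.2, 83.4 and 93.6 (Il12b-/-), 50.7, 46.9, 80.3, 78.7 and 68.1 (Il12a-/-) and 52.0, 66.9, 45.2, 41.9 and 76.0 FPKM (Il23a-/-). These ranges overlapped that of NEMOIEC-KO, and the differences of 0.63, 0.43 and 0.22 did not pass (adjusted p 0.058, 0.22 and 0.84).

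Acsl5 (ENSMUSG00000024981, chr19:55251938-55297720, + strand), the synthetase typical of intestinal epithelium, went the other way. Its Nemofl/fl values were 35.2, 30.4, 35.4, 34.7 and 34.3 FPKM, and those of NEMOIEC-KO 34.98, 53.1, 65.0, 48.6 and 47.2. The highest NEMOIEC-KO library was replicate 3, while replicate 1 lay among the controls, and the difference of 0.52 (SE 0.15, adjusted p = 0.015) was lost without replicate 3 (0.42, adjusted p = 0.057). By sex-linked RNA replicate 3 was the only female of its group. Its absorptive colonocyte sum was 1962 FPKM against 2835 to 4080 in the rest of the group, and its T cell sum 79.0 against 28.4 to 54.7. The part of that library in the member values was not tested beyond the fits without it. With the Il12b-/- label the libraries held 42.8, 54.4, 38.3, 36.5 and 36.3, Il12a-/- libraries 49.2, 37.7, 30.9, 41.9 and 40.7 and Il23a-/- libraries 69.2, 40.6, 48.6, 58.4 and 43.1 FPKM, and only the last group was higher than Nemofl/fl, by 0.58 (SE 0.15, adjusted p = 0.01), among the double mutants.

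Cpt1a, the carnitine palmitoyltransferase that sets the rate of mitochondrial entry, averaged 56.2 ± 17.1 FPKM in controls against 40.3 ± 5.88 in NEMOIEC-KO, a fall of 0.45 on the log2 scale (adjusted p = 0.032). Its control mean rests in part on Nemofl/fl replicate 1, at 86.7 FPKM against 47.9 to 50.0 in the other 4, and without that library the difference was -0.28 (adjusted p = 0.10). The call was also lost without NEMOIEC-KO replicate 3 (-0.37, adjusted p = 0.10) or 5 (-0.41, 0.068). Crat, carnitine acetyltransferase, fell from 25.3 ± 1.08 to 21.1 ± 2.08 FPKM, a call lost without NEMOIEC-KO replicate 5 (-0.20, adjusted p = 0.050), and was at 26.4 ± 1.73 in Il12b-/- libraries, higher by 0.32 (SE 0.08, adjusted p = 0.007). Cpt2, which releases acyl-CoA inside the mitochondrion, and Acsl1 passed in none of the 4 main comparisons, with NEMOIEC-KO differences of -0.00 (95% interval -0.23 to 0.23) and -0.08 (-0.36 to 0.20).

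**Figure D3:**
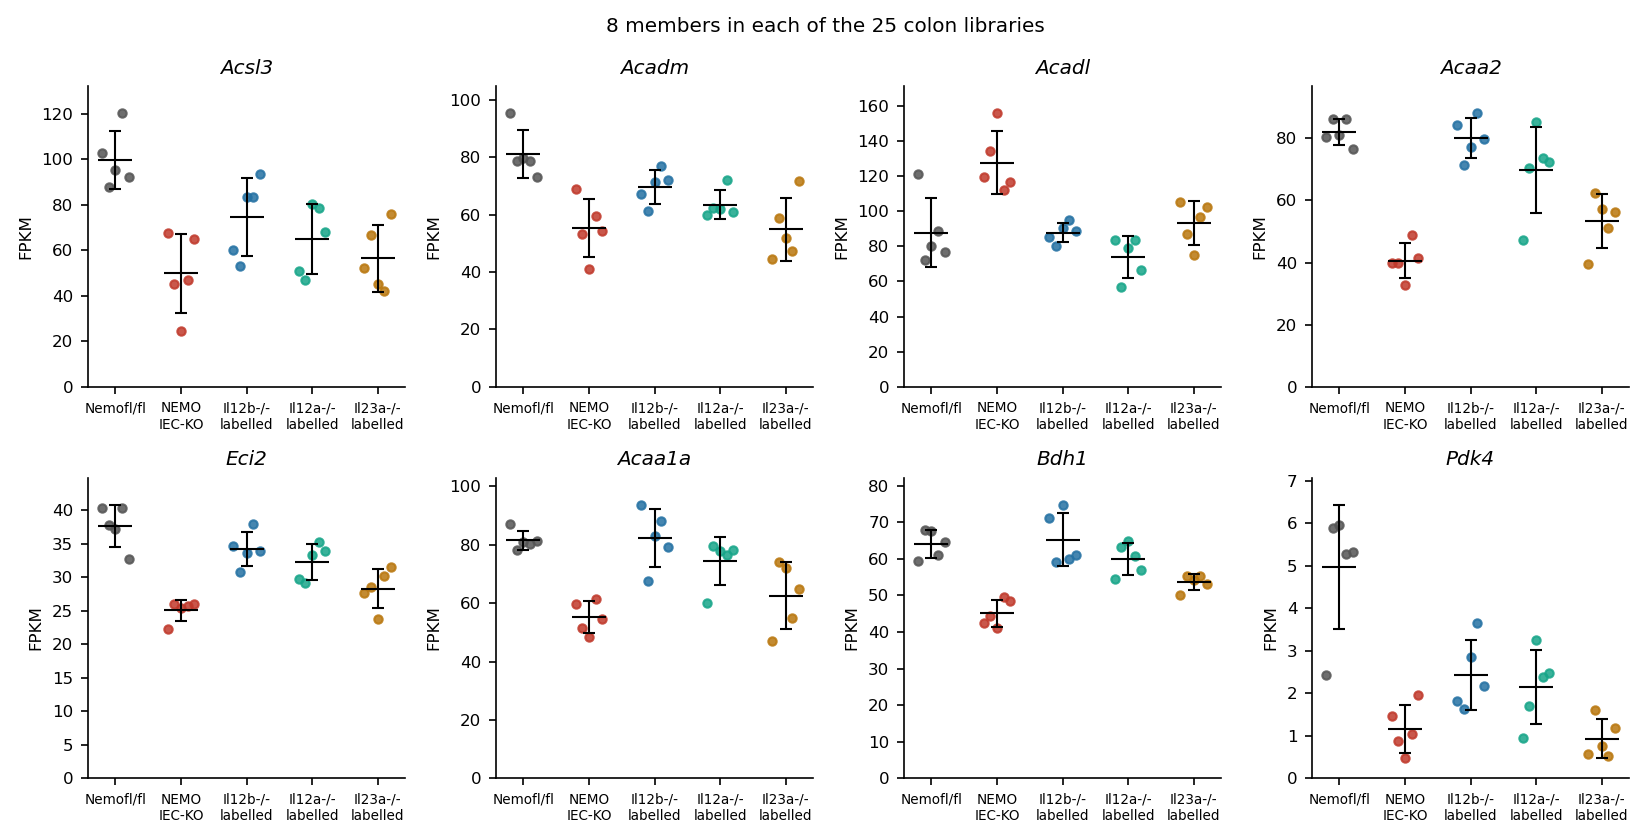
FPKM (y axis, from 0) of 8 members in each library by genotype (x axis); points are libraries, and bars are the mean and SD over 5 mice. For Acaa2 the NEMOIEC-KO libraries lie between 32.9 and 48.9 FPKM, below all Nemofl/fl (76.7 to 86.3) and all Il12b-/- libraries (71.3 to 88.0), and Acadl has its highest mean, 128 FPKM, in NEMOIEC-KO.

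Acyl-CoA dehydrogenases take the first step of the spiral, each for its range of chain lengths. Acadm (ENSMUSG00000062908, chr3:153922357-153944632, - strand), for medium chains, measured 95.3, 78.6, 79.6, 78.8 and 72.9 FPKM in Nemofl/fl and 68.8, 53.3, 41.1, 59.6 and 54.4 in NEMOIEC-KO libraries. All NEMOIEC-KO values were below all control values, a difference of -0.56 (SE 0.12, adjusted p = 0.0019). The Il12b-/- group held 67.2, 61.2, 71.3, 76.8 and 72.1, Il12a-/- libraries 59.7, 62.5, 61.9, 72.2 and 60.8 and Il23a-/- libraries 44.6, 58.8, 51.8, 47.2 and 71.8 FPKM. Each range overlapped NEMOIEC-KO, and only the Il12b-/- difference passed among these 3, by 0.34 (SE 0.12, adjusted p = 0.049), but not when any 1 of 7 of the 10 libraries was left out (adjusted p 0.075 to 0.16).

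Promoter windows (250 bases before to 50 after a start site, GRCm38.p6, RefSeq) were at hand for 30 of the 35 members, 34 windows in all. A direct repeat of the PPAR type, AGGNCANAGGNCA, was searched on both strands, and 0 of the 34 member windows held it, against 125 of all 32851 windows (0.381%). The shorter motif CAAAGNCCA was in 1 member window (2.94%), against 650 of all windows (1.98%), and that window belongs to Acadm. The bases before that start site are printed because Acadm is the member that holds the motif (GRCm38.p6, chr3:153944644-153944767, - strand, 124 bases 5′ to 3′, the match in capitals, with 45 bases between it and the start site).
Acadm: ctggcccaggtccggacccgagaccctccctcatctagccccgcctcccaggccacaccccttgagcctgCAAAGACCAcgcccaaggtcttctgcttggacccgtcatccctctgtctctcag
A match is a description of these letters and not evidence of a bound site.

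Acadl (ENSMUSG00000026003, chr1:66830839-66863277, - strand), for long chains, was the dehydrogenase with the opposite direction. It measured 121, 72.1, 80.5, 88.8 and 76.5 FPKM in Nemofl/fl and 119, 134, 156, 112 and 116 in NEMOIEC-KO, a difference of 0.55 (SE 0.13, adjusted p = 0.0035). Nemofl/fl replicate 1 stood above its group and reached the NEMOIEC-KO range. The Il12b-/- libraries gave 85.05, 80.4, 90.3, 94.8 and 88.7, the Il12a-/- libraries 83.8, 57.0, 79.1, 83.6 and 66.5 and the Il23a-/- libraries 105, 86.8, 75.2, 96.5 and 103 FPKM. All 15 double-mutant values were below the lowest NEMOIEC-KO value, with differences of -0.53 (SE 0.13, adjusted p = 0.0074) and -0.79 (SE 0.13, adjusted p = 0.0014) for the first 2 labels and a difference of -0.45 (SE 0.13, adjusted p = 0.15) that did not pass for Il23a-/-.

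Acads, for short chains such as butyrate, fell from 97.0 ± 9.46 to 70.6 ± 7.89 FPKM in NEMOIEC-KO (-0.46, SE 0.11, adjusted p = 0.0034) and was at 106 ± 8.23, 97.2 ± 6.88 and 94.8 ± 18.3 FPKM in the Il12b-/-, Il12a-/- and Il23a-/- libraries. The Il23a-/- difference from NEMOIEC-KO was 0.41 (SE 0.11, adjusted p = 0.12). Acadsb, for short branched chains, fell from 12.5 ± 0.898 to 8.63 ± 1.07 FPKM and rose to 11.9 ± 0.775 with the Il12b-/- label (0.45, SE 0.10, adjusted p = 0.0036) and to 11.3 ± 1.52 with the Il12a-/- label (0.36, SE 0.10, adjusted p = 0.027), the latter lost in 7 of 10 leave-one-out fits (adjusted p 0.052 to 0.081). Acadvl, for very long chains, passed in none of the 4, with means of 82.8 ± 1.79 and 70.6 ± 8.32 FPKM in the first 2 genotypes.

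The 6 members of the later mitochondrial steps, which hydrate, dehydrogenate and cleave the chain, had all their calls in 1 direction in each of the 4 main comparisons: 4 of 6 fell in NEMOIEC-KO, and 6, 3 and 1 were higher than in NEMOIEC-KO with the Il12b-/-, Il12a-/- and Il23a-/- labels. Acaa2 (ENSMUSG00000036880) had the largest change. It measured 80.4, 86.3, 80.9, 86.2 and 76.7 FPKM in Nemofl/fl and 40.0, 39.7, 32.9, 48.9 and 41.5 in NEMOIEC-KO, a difference of 50.5% between the means. Il12b-/- libraries, at 84.1, 71.3, 77.2, 88.0 and 79.7, lay wholly above NEMOIEC-KO and overlapped the controls. Il12a-/- libraries held 47.2, 70.3, 85.3, 73.8 and 72.3 FPKM, with replicate 1 alone inside the NEMOIEC-KO range. That library also stood apart in its markers, with a summed absorptive colonocyte level of 2590.5 FPKM against 5438 to 6735 in the other 4, and a smooth muscle sum of 3093 against 7759 to 14836. Il12b-/- replicate 2, lowest of its group for Acaa2, stood apart in the same way. Its absorptive colonocyte sum was 3302 FPKM against 7593 to 8371 in the other 4, and its smooth muscle sum 2641 against 6954 to 11794. The part of either library in the member values was not tested beyond the fits without it. Without Il12a-/- replicate 1 the Acaa2, Eci1 and Acaa1a differences from NEMOIEC-KO were 0.89 (adjusted p = 2.3e-05), 0.39 (adjusted p = 0.0021) and 0.50 (adjusted p = 0.0029) and that of Hadh 0.37 (adjusted p = 0.025). Il23a-/- libraries held 39.6, 62.3, 57.3, 51.1 and 56.4 FPKM, all below the lowest control (-0.63, SE 0.13, adjusted p = 0.002), and the difference from NEMOIEC-KO was 0.38 (SE 0.13, adjusted p = 0.24).

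Hadh (ENSMUSG00000027984, chr3:131233419-131272101, - strand) measured 191, 154, 164, 165 and 169.6 FPKM in Nemofl/fl and 148, 108, 99.5, 150.5 and 131 in NEMOIEC-KO, where all 5 were below the controls (-0.42, SE 0.11, adjusted p = 0.0061). Il12b-/- libraries held 181, 151, 163, 181 and 165, all above NEMOIEC-KO (0.42, SE 0.11, adjusted p = 0.01). Il12a-/- libraries held 148, 168, 158, 164 and 159 FPKM, of which replicate 1 lay within the NEMOIEC-KO range, and the difference of 0.34 sat at the threshold without passing it (adjusted p = 0.0501). Il23a-/- libraries held 108, 154, 153, 132 and 153, with replicate 1 again low, at 0.14 (SE 0.11, adjusted p = 0.73) from NEMOIEC-KO. That Il23a-/- library also had the lowest absorptive colonocyte sum of its group, 1763 FPKM against 2890 to 5175.

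Hadha and Hadhb encode the α and β subunits of the mitochondrial trifunctional protein and lie head to head on chromosome 5, with RefSeq start sites at 30154980 and 30155253 that are 273 bases apart. The stretch upstream of both genes is shown because it is common to the promoters of a pair whose levels were measured separately (GRCm38.p6, chr5:30155163-30155230, + strand, the strand of Hadhb, RefSeq sequence, 68 bases, no part in capitals).
Hadha-Hadhb: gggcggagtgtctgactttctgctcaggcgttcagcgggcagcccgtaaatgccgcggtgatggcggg
Hadhb fell from 91.2 ± 11.4 to 70.5 ± 3.24 FPKM in NEMOIEC-KO (-0.36, SE 0.09, adjusted p = 0.0045), with no overlap. Hadha measured 85.7 ± 16.9 and 73.1 ± 6.27 FPKM, a difference of -0.21 (SE 0.09, adjusted p = 0.075) that did not pass, and its control mean includes Nemofl/fl replicate 1 at 115 FPKM against 72.8 to 83.0 in the others. With the Il12b-/- label both were above NEMOIEC-KO without overlap, Hadha by 0.31 (SE 0.09, adjusted p = 0.021) and Hadhb by 0.35 (SE 0.09, adjusted p = 0.0085), the former lost without NEMOIEC-KO replicate 5 (0.27, adjusted p = 0.055). With the Il12a-/- label Hadhb rose by 0.36 (SE 0.09, adjusted p = 0.017), lost without Il12a-/- replicate 2 (0.32, adjusted p = 0.062), and Hadha differed by 0.25 (SE 0.09, adjusted p = 0.079). A difference in response between the subunits was not tested.

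Hsd17b10, an X-linked gene whose enzyme acts on short and branched chains, fell from 66.5 ± 4.56 to 53.4 ± 3.27 FPKM in NEMOIEC-KO and was at 69.6 ± 4.63, 70.4 ± 5.98 and 68.0 ± 2.93 FPKM in the double mutants. Its 15 double-mutant libraries all lay above the highest NEMOIEC-KO library. Echs1, the short-chain hydratase, averaged 81.3 ± 5.61 and 71.1 ± 5.11 FPKM in Nemofl/fl and NEMOIEC-KO (-0.19, SE 0.08, adjusted p = 0.061) and rose to 86.9 ± 7.64 with the Il12b-/- label (0.29, SE 0.08, adjusted p = 0.013).

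Eci1 and Eci2 shift double bonds so that unsaturated chains can pass the spiral, Eci2 in peroxisomes as well as mitochondria. Eci2 (ENSMUSG00000021417, chr13:34977748-35027096, - strand) measured 40.3, 37.7, 37.2, 40.3 and 32.7 FPKM in Nemofl/fl and 22.3, 25.9, 25.4, 25.7 and 26.0 in NEMOIEC-KO, all below the controls (-0.57, SE 0.08, adjusted p = 2.9e-05). With the Il12b-/- label the libraries held 34.7, 30.8, 33.6, 37.8 and 33.9, Il12a-/- libraries 29.7, 29.2, 33.3, 35.2 and 33.8 and Il23a-/- libraries 27.6, 28.6, 23.7, 30.1 and 31.5 FPKM. The first 2 groups lay wholly above NEMOIEC-KO (0.44, SE 0.08, adjusted p = 0.00069 and 0.36, SE 0.08, adjusted p = 0.0097), while the Il23a-/- group overlapped it (0.17, SE 0.08, adjusted p = 0.46) and lay wholly below the controls (-0.41, SE 0.08, adjusted p = 0.0014).

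Eci1 (ENSMUSG00000024132, chr17:24426641-24439348, + strand) measured 31.0, 29.4, 28.9, 33.2 and 31.5 FPKM in Nemofl/fl and 22.6, 22.4, 23.1, 27.0 and 23.0 in NEMOIEC-KO, with no overlap (-0.38, SE 0.08, adjusted p = 0.0013). The Il12b-/- group held 37.7, 30.4, 30.7, 32.1 and 33.6, Il12a-/- libraries 26.5, 29.3, 27.7, 32.1 and 35.1 and Il23a-/- libraries 29.4, 31.0, 29.1, 34.2 and 33.9 FPKM. Only Il12a-/- replicate 1 reached down to the NEMOIEC-KO range, and the Il23a-/- group differed from the controls by 0.03 (95% interval -0.13 to 0.19). Decr1, the mitochondrial dienoyl-CoA reductase, passed in none of the 4 main comparisons, and its group means stayed between 20.9 and 23.0 FPKM.

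Etfa and Etfb form the flavoprotein that takes electrons from the dehydrogenases, and Etfdh passes them to ubiquinone. Etfdh (ENSMUSG00000027809, chr3:79603788-79629500, - strand) measured 40.8, 26.2, 29.8, 28.0 and 28.8 FPKM in Nemofl/fl and 26.6, 24.9, 22.2, 27.4 and 24.1 in NEMOIEC-KO. Nemofl/fl replicate 1 stood far above the rest, the groups overlapped, and the difference of -0.28 (SE 0.10, adjusted p = 0.041) was lost without Nemofl/fl replicate 1 (-0.17, adjusted p = 0.14) or 3 (-0.28, 0.062) and without NEMOIEC-KO replicate 2 (-0.28, 0.071), 3 (-0.24, 0.12) or 5 (-0.27, 0.074). The Il12b-/- libraries gave 27.1, 26.8, 28.4, 29.2 and 28.5, Il12a-/- libraries 27.9, 23.9, 21.6, 27.5 and 25.9 and Il23a-/- libraries 24.1, 23.4, 22.3, 22.2 and 30.3 FPKM, with no difference from NEMOIEC-KO past the threshold. Etfa and Etfb passed in none of the 4, with NEMOIEC-KO differences of -0.13 and -0.12 from Nemofl/fl.

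In the peroxisome, Acaa1a (ENSMUSG00000036138, chr9:119339676-119350299, + strand), the thiolase, measured 87.1, 78.2, 80.9, 80.2 and 81.2 FPKM in Nemofl/fl and 59.9, 51.5, 48.4, 61.4 and 54.6 in NEMOIEC-KO, all below the controls (-0.56, SE 0.11, adjusted p = 0.00083). Il12b-/- libraries held 93.7, 67.5, 83.1, 88.1 and 79.3, Il12a-/- libraries 59.97, 79.6, 77.7, 76.6 and 78.2 and Il23a-/- libraries 47.1, 74.1, 72.0, 54.9 and 64.8 FPKM. The Il12b-/- libraries lay wholly above NEMOIEC-KO (0.57, SE 0.11, adjusted p = 0.0012). In the Il12a-/- group replicate 1 alone lay in the NEMOIEC-KO range, and its difference of 0.43 (SE 0.11, adjusted p = 0.02) was lost in 6 of 10 leave-one-out fits (adjusted p 0.051 to 0.066).

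Ehhadh (ENSMUSG00000022853, chr16:21761287-21787807, - strand), the bifunctional enzyme of peroxisomal oxidation, measured 15.7, 11.6, 13.0, 10.9 and 12.8 FPKM in Nemofl/fl and 9.16, 7.91, 5.53, 10.4 and 8.09 in NEMOIEC-KO. The highest NEMOIEC-KO library was below the lowest control, a difference of -0.63 (SE 0.15, adjusted p = 0.004). With the Il12b-/- label the libraries held 11.3, 7.31, 10.5, 13.0 and 13.9, Il12a-/- libraries 9.16, 7.96, 8.33, 10.3 and 9.22 and Il23a-/- libraries 7.98, 9.87, 8.42, 8.07 and 10.4 FPKM. None of the 3 groups differed from NEMOIEC-KO past the threshold (adjusted p 0.055, 0.56 and 0.86), and the Il23a-/- group was below Nemofl/fl without overlap (-0.49, SE 0.15, adjusted p = 0.021).

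Hsd17b4, the other bifunctional enzyme of the peroxisome, fell from 22.3 ± 1.92 to 18.4 ± 1.14 FPKM and rose to 21.9 ± 1.06 with the Il12b-/- label (0.25, SE 0.07, adjusted p = 0.016). Decr2, the peroxisomal dienoyl-CoA reductase, was at 19.0 ± 1.84 and 15.4 ± 2.83 FPKM and did not pass (-0.31, SE 0.13, adjusted p = 0.063). Acaa1b, a close paralog of Acaa1a, averaged 0.286 ± 0.0816 FPKM with the Il12b-/- label and 0.130 ± 0.0671 in NEMOIEC-KO. Since it passed the filter only through the Il12b-/- libraries, its difference is given here with no test, though the counts over all members include its call. At these levels, far below those of Acaa1a, reads assigned from the paralog cannot be told apart from its own.

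Bdh1 (ENSMUSG00000046598, chr16:31422280-31458901, + strand) interconverts acetoacetate and 3-hydroxybutyrate, and it alone among the ketone body members described here passed the threshold. It measured 59.4, 67.9, 67.6, 61.0 and 64.6 FPKM in Nemofl/fl and 42.5, 44.3, 41.0, 49.6 and 48.4 in NEMOIEC-KO, all below the controls (-0.50, SE 0.07, adjusted p = 4.9e-05). The Il12b-/- group held 71.2, 59.2, 74.8, 60.0 and 61.2, Il12a-/- libraries 54.5, 63.2, 64.9, 60.7 and 56.8 and Il23a-/- libraries 50.3, 55.4, 54.2, 55.4 and 53.1 FPKM. Each of these 15 values was above the highest NEMOIEC-KO value. The Il23a-/- libraries were also below every control (-0.25, SE 0.07, adjusted p = 0.014), and the difference from NEMOIEC-KO did not pass (0.25, SE 0.07, adjusted p = 0.15).

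Acat1, the mitochondrial acetoacetyl-CoA thiolase, and Oxct1, the transferase that activates acetoacetate for use outside the liver, passed in none of the 10 comparisons. Acat1 averaged 51.3 ± 5.96 FPKM in controls against 51.4 ± 7.09 in NEMOIEC-KO, a difference of 0.00 (95% interval -0.19 to 0.19). Oxct1 averaged 93.8 ± 3.53 and 84.1 ± 12.1 FPKM, a difference of -0.17 (-0.38 to 0.04).

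Among the regulators, Pdk4 (ENSMUSG00000019577, chr6:5483351-5496309, - strand), often used as a readout of PPAR activity, measured 2.43, 5.88, 5.95, 5.28 and 5.33 FPKM in Nemofl/fl and 1.47, 0.879, 0.484, 1.03 and 1.96 in NEMOIEC-KO, 76.6% lower on average. Nemofl/fl replicate 1 was the lowest control but still above all NEMOIEC-KO libraries. The Il12b-/- libraries gave 1.83, 1.64, 2.86, 3.65 and 2.17, Il12a-/- libraries 0.948, 1.70, 3.25, 2.38 and 2.47 and Il23a-/- libraries 0.563, 1.61, 0.765, 0.530 and 1.19 FPKM. Il12b-/- and NEMOIEC-KO overlapped, and the difference of 0.84 (SE 0.29, adjusted p = 0.041) was lost without any 1 of 7 of the 10 libraries (adjusted p 0.051 to 0.13). The Il23a-/- libraries lay wholly below Nemofl/fl (-1.94, SE 0.29, adjusted p = 0.00012) and below every Il12b-/- library.

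Ppargc1a (ENSMUSG00000029167, chr5:51454250-51567726, - strand), which encodes PGC-1α, measured 9.19, 4.86, 4.96, 6.84 and 5.90 FPKM in Nemofl/fl and 4.99, 4.70, 2.15, 3.24 and 3.50 in NEMOIEC-KO. The groups overlapped, and the difference of -0.71 (SE 0.23, adjusted p = 0.021) was lost without Nemofl/fl replicate 1 (-0.58, adjusted p = 0.058) or NEMOIEC-KO replicate 3 (-0.56, 0.077). Il12b-/- libraries held 4.74, 2.27, 3.85, 5.56 and 5.48, Il12a-/- libraries 3.24, 2.68, 2.50, 3.40 and 4.43 and Il23a-/- libraries 3.01, 3.70, 2.61, 3.09 and 4.89 FPKM, none past the threshold against NEMOIEC-KO. Pparg rose from 17.6 ± 3.28 to 23.6 ± 1.21 FPKM in NEMOIEC-KO (0.43, SE 0.12, adjusted p = 0.012) and was at 17.7 ± 3.46 with the Il12a-/- label, a difference of -0.42 (SE 0.12, adjusted p = 0.035) lost in 8 of 10 leave-one-out fits (adjusted p 0.053 to 0.11). Ppara was low throughout, at 0.731 ± 0.476 FPKM in controls against 0.288 ± 0.144 in NEMOIEC-KO, and did not pass (-0.58, SE 0.27, adjusted p = 0.1).

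A wider list of 62 other genes of fatty acid, short-chain acid and ketone body metabolism, of which 58 were tested, was counted in the same way. In NEMOIEC-KO 24 fell and 3 rose (median -0.30), where 20.3% of all genes were lower and 11.9% higher. With the Il12b-/- label 18 rose and none fell (median 0.27), where 14.0% of all genes were higher and 5.94% lower. With the Il12a-/- label 13 rose and none fell (0.21), against 5.61% and 4.00% of all genes. With the Il23a-/- label limma called 0 (0.09), with 12 at an unadjusted p under 0.05 against 10.5% of all genes.

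Eci3, an isomerase related to Eci2, averaged 7.12 ± 0.360 FPKM in controls against 1.57 ± 0.613 in NEMOIEC-KO (-1.93, SE 0.34, adjusted p = 0.00034), and rose with the Il12b-/- (1.70, SE 0.34, adjusted p = 0.0016) and Il12a-/- labels (1.49, SE 0.34, adjusted p = 0.011). The genes of this list that rose in NEMOIEC-KO were Acsl4, a synthetase for arachidonate (0.49, adjusted p = 0.024), Acot8, a peroxisomal thioesterase (0.34, 0.016), and Acox3, a peroxisomal oxidase (0.26, 0.023). The same shares of all genes stand beside the next lists. Of the 18 genes of the citric acid cycle, which takes up the acetyl-CoA, 8 fell and none rose in NEMOIEC-KO (median -0.19), and 8 rose and none fell with the Il12b-/- label (0.19). Of the 13 protein genes of the mitochondrial genome 5 fell in NEMOIEC-KO. In the Il12b-/- libraries against NEMOIEC-KO limma called 0 of them (0 at an unadjusted p under 0.05, against 34.5% of all genes).

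**Figure D4:**
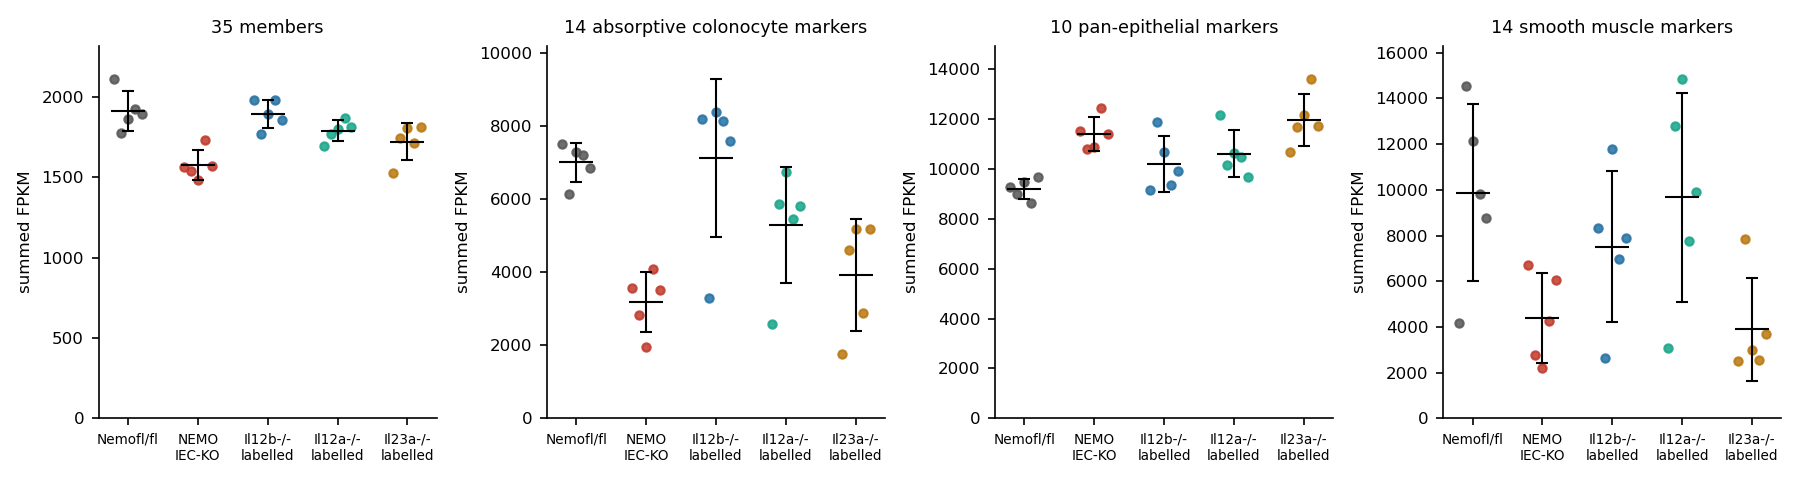
Summed FPKM (y axis, from 0) of the 35 members and of 3 lists of cell type markers in each library by genotype (x axis); points are libraries, and bars are the mean and SD over 5 mice. The NEMOIEC-KO mean is 1577 for the members, 3187 for absorptive colonocyte markers, 11398 for pan-epithelial markers and 4407 for smooth muscle markers, against 1912, 6998, 9207 and 9884 in Nemofl/fl.

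Markers of the cell types in the tissue moved with the genotypes. Of 13 tested absorptive colonocyte markers 8 fell and 2 rose in NEMOIEC-KO (median -1.64), of 10 pan-epithelial markers 7 rose (0.36), of 14 smooth muscle markers 11 fell (-1.16) and of 12 T cell markers 12 rose (1.31). Of 10 neutrophil and 11 macrophage markers 8 and 8 rose, and of 10 tested adipocyte markers 2 fell. In Il12b-/- libraries against NEMOIEC-KO, 4 absorptive colonocyte markers rose and 3 fell, 6 pan-epithelial, 6 T cell, 5 neutrophil markers and 1 macrophage marker fell, and 1 adipocyte marker rose. There limma called 0 of 14 smooth muscle markers (2 at an unadjusted p under 0.05, against 34.5% of all genes). In Il12a-/- libraries against NEMOIEC-KO, 4 pan-epithelial, 2 neutrophil, 2 macrophage markers and 1 T cell marker fell, and 1 adipocyte marker rose. In that comparison limma called 0 of 13 absorptive colonocyte and 0 of 14 smooth muscle markers. At an unadjusted p under 0.05 in limma, 7 and 11 of these passed, against 29.2% of all genes. The summed FPKM of absorptive colonocyte markers averaged 6998 (6137 to 7491) for Nemofl/fl and 3187 (1962 to 4079.9) for NEMOIEC-KO, and 7117 (3302 to 8371), 5287 (2590.5 to 6735) and 3923 (1763 to 5175) with the Il12b-/-, Il12a-/- and Il23a-/- labels. The pan-epithelial sum averaged 9207, 11398, 10195, 10614 and 11959 in the same order. The T cell sum averaged 10.7 FPKM (7.50 to 16.4) for Nemofl/fl and 45.7 (28.4 to 79.0) for NEMOIEC-KO. The adipocyte sum stayed between 27.7 and 234 FPKM per library. Its highest value was that of Il12b-/- replicate 1, and the other libraries with that label held 50.2 to 99.3 FPKM. Adipoq, the adipocyte hormone adiponectin, averaged 0.897 ± 0.697 FPKM for Nemofl/fl, 0.509 ± 0.574 for NEMOIEC-KO and 4.32 ± 5.20 with the Il12b-/- label, and the part of adipocyte RNA in these results was not tested. With a score of the absorptive colonocyte markers in the model, 5 members were lower and none higher in NEMOIEC-KO: Acaa2, Eci2, Bdh1 and Pdk4, at -0.64, -0.51, -0.39 and -1.08 (adjusted p 0.0012, 0.0045, 0.0098 and 0.037), and Acadsb. The score does not overlap between Nemofl/fl (at least 0.373) and NEMOIEC-KO (at most -0.235), so that fit cannot cleanly separate it from the genotype. Under the same score, 8 members were higher and 1 lower with the Il12b-/- label. With a smooth muscle score 15 members were lower and none higher in NEMOIEC-KO. The number of all genes called under the absorptive colonocyte and smooth muscle scores is not given here, so these counts cannot be set against genes at large. With a pan-epithelial score limma called 0 members and 97 of all genes there, where the score does not overlap between Nemofl/fl (at most -0.08) and NEMOIEC-KO (at least 0.12), so it cannot be told apart from the genotype. The part of T cell and other immune cell RNA in these results was not tested.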

How the data were processed

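RNA was extracted from distal colon, and poly(A)-selected stranded libraries were sequenced with paired ends, per the labels' protocols. The deposited values are FPKM per gene and library, computed by the authors. GRCm38 is the build named in the submitters' processing notes, which list Cufflinks 2.1.1, TopHat2 2.0.10 and also DESeq2 1.10.1, and the role of each program and the strand setting of the counting are not given in the sources used here. Of the 35 members 14 share exon bases with another gene, 12 of them on the opposite strand and 2 on the same strand, and are uncertain to that extent. Among those given in every library, Acsl3 shares 244 bases with Utp14b on the same strand. On the opposite strand Bdh1 shares 533 bases with Gm15743, Acsl5 404 with Zdhhc6 and Acaa1a 290 with Myd88. Etfdh shares 278 with 4930579G24Rik and Eci2 189 with Gm16984, also on the opposite strand. Gene positions are from GENCODE M21 (GRCm38). All value columns matched a sample.

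Genes entered the tests from 0.2 FPKM upwards in 5 or more libraries. All 25 libraries entered 1 model with 1 mean per genotype, on log2(FPKM + 0.5), in limma 3.58.1 under R 4.3.3 (prior variance with trend, 20 residual degrees of freedom). Tests were two-sided, with Benjamini-Hochberg adjustment over all 19266 genes of a comparison and a threshold of 0.05. The 10 comparisons share libraries. Fold changes contain the added 0.5 and understate those of low genes. On simulated data, with 200 genes changed between NEMOIEC-KO and Nemofl/fl among the 19266, 40.5% were recovered at a log2 change of 0.5 and 84% at 1. The changed genes were drawn from those with a mean log2 value above 1, and genes were simulated independently. In the real comparison 32.2% of all genes were called, so these recovery rates do not describe it. Replicate numbers did not pair libraries: the median correlation of 50 same-numbered pairs was 0.0071, against 0.0086 for 200 others.

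The members, roles and lists were chosen with earlier results of these data known. All members are named, and in each role the 2 with the largest NEMOIEC-KO change among those called in a main comparison are given in every library. Of the wider list the 2 largest changes in each direction are named, except 1 gene that is not reported here, and Acox3 was added after its value was seen. Alternatives covered the pseudocount, the filter, scaling, library code, sex, tissue scores, the replicate block and each library left out. For these alternatives the number of all genes called is given only with the pan-epithelial score in NEMOIEC-KO against Nemofl/fl. Elsewhere their member counts cannot be set against genes at large.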

Additional observations from a re-analysis of the deposited data

Results flagged for a closer look

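In each genotype, a member's highest or lowest library was marked when its gap to the nearest other library was over 0.71 of the group's range (Dixon's 95% limit for 5 values). Chance marks about 1 in 20 such groups, and 15 of 175 (8.57%) were marked here. Nemofl/fl replicate 1 accounts for 4 of them, being highest in its group for Cpt1a (86.7 FPKM), Hadha (115 FPKM) and Etfdh (40.8 FPKM) and lowest for Pdk4 (2.43 FPKM). In the other Nemofl/fl libraries, replicate 2 was lowest for Acsl5 (30.4 FPKM) and replicate 5 highest for Acaa1b (0.240 FPKM). Among NEMOIEC-KO libraries, replicate 4 was highest for Acadvl (85.3 FPKM) and Eci1 (27.0 FPKM), replicate 1 lowest for Eci2 (22.3 FPKM) and replicate 3 highest for Ppara (0.536 FPKM). Among the double mutants, Il12b-/- replicate 3 was highest for Acadsb (13.3 FPKM), Il12a-/- replicate 4 highest for Acadm (72.2 FPKM), Il12a-/- replicate 1 lowest for Acaa1a (60.0 FPKM), Il23a-/- replicate 1 lowest for Crat (18.7 FPKM) and Il23a-/- replicate 5 highest for Etfdh (30.3 FPKM).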

How the results depend on the processing

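Counts below are members called, with 22, 18, 11 and 2 of 35 for NEMOIEC-KO against Nemofl/fl and for Il12b-/-, Il12a-/- and Il23a-/- against NEMOIEC-KO, 15 for Il23a-/- against Nemofl/fl and 6 for Il12b-/- against Il23a-/-. The 18 include Acaa1b, tested only because of the Il12b-/- libraries, and later counts with that label can include it. Without Acaa1b, 16 of 34 members rose and 1 fell in the main fit of Il12b-/- against NEMOIEC-KO. Shares of all genes under the settings below are not given in this section. A lower count therefore cannot be read as particular to the members. No called member reversed its direction in any setting run for the 4 main comparisons. Leaving out each of the 10 libraries of a comparison in turn gave 18 to 26, 15 to 21, 8 to 15 and 0 to 3 for the 4 main comparisons, 10 to 16 for Il23a-/- and 0 to 1 for Il12a-/- against Nemofl/fl, 1 to 8 for Il12b-/- and 0 to 5 for Il12a-/- against Il23a-/-. In every leave-one-out fit 17 of the 22, 14 of the 18, 7 of the 11 and 0 of the 2 calls were kept.

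The replicate block, a paired fit on numbers that do not pair these mice, gave 24, 18, 11 and 1 for the 4 main comparisons, and 2 for Il12a-/- against Nemofl/fl in place of 0. A pan-epithelial score in the model left 0, 2, 0 and 0 in the 4 main comparisons and 0 for both Il23a-/- against Nemofl/fl and Il12b-/- against Il23a-/-. That score did not overlap between NEMOIEC-KO (at least 0.12) and Il12b-/- libraries (at most 0.042). Nor did it between Nemofl/fl (at most -0.082) and Il23a-/- libraries (at least 0.037). As in NEMOIEC-KO against Nemofl/fl, it cannot be told apart from the genotype there. An absorptive colonocyte score, chosen after seeing the data, left 5 in NEMOIEC-KO against Nemofl/fl, 9 with the Il12b-/- label, 2 for Il23a-/- against Nemofl/fl and 2 for Il12b-/- against Il23a-/-. This score did not overlap between Nemofl/fl (at least 0.373) and Il23a-/- libraries (at most 0.179), so that fit cannot cleanly separate it from the genotype either. A smooth muscle score left 4 with the Il12a-/- label, 2 for Il23a-/- against Nemofl/fl and 0 for Il12b-/- against Il23a-/-, and gave 2 for Il12a-/- against Nemofl/fl. The library code in the model left 8, 5 and 0 with the Il12b-/-, Il12a-/- and Il23a-/- labels against NEMOIEC-KO and 6 for Il23a-/- against Nemofl/fl. The count against Nemofl/fl rests on the NEMOIEC-KO mice as the only link between the codes. Within 1 code the counts with these labels were 6, 0 and 0 against NEMOIEC-KO and 3 for Il12b-/- against Il23a-/-. Median-of-ratios scaling gave 9, 7 and 0 against NEMOIEC-KO and 2 for Il12b-/- against Il23a-/-. Fits of only the 2 groups compared gave 7 and 0 for Il12a-/- and Il23a-/- against NEMOIEC-KO, 4 for Il12a-/- against Nemofl/fl and 1 for Il12b-/- against Il23a-/-. With sex in the model 0 remained for Il23a-/- against NEMOIEC-KO, 4 for Il23a-/- against Nemofl/fl and 1 for Il12b-/- against Il23a-/-. Quantile normalization and the fit with no trend both gave 0 for Il23a-/- against NEMOIEC-KO, quantile normalization and a pseudocount of 1 both gave 1 for Il12a-/- against Nemofl/fl, and no filter gave 2 for Il12b-/- against Il23a-/-.

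Il12b-/- against Nemofl/fl and against Il12a-/- had 0 calls in every setting run. The cause of these changes was not tested. Depth limits the values near zero, those of Acaa1b and Ppara, more than the others.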
